A study of Mus musculus with 13 samples.

Results

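Hsd3b6 and Dnahc6 are 2 of the 25965 gene intervals in the deposited table of expression values from mouse embryonic fibroblasts (MEFs). They were selected on these data, for large rises with the drug 5-azacytidine (5-aza) in cells carrying a hairpin against Setdb1. Their values in that contrast, and in any contrast that shares libraries with it, are therefore given as descriptions. The libraries with a control hairpin played no role in the choice, and the effect of 5-aza between them is the comparison that was tested. Hsd3b6 belongs to the 3-beta-hydroxysteroid dehydrogenase/isomerase family, enzymes that convert delta-5 to delta-4 steroids during steroid hormone synthesis and that are characteristic of adrenal, gonadal and placental cells. Dnahc6, now named Dnah6, encodes an axonemal dynein heavy chain, one of the large ATP-driven motor subunits that bend motile cilia and sperm flagella. Fibroblasts are known neither for steroid hormone synthesis nor for motile cilia. 5-aza is built into nucleic acids and traps DNA methyltransferases, so that methylation is lost as DNA is copied. Setdb1 methylates lysine 9 of histone H3, a mark of silent chromatin.

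The hairpin cultures were primary female XistΔA / PGK MEFs (an X with the XistΔA allele, the other X from the PGK strain) taken from E13.5 embryos, transduced with a retrovirus and selected with puromycin after 24 h. They were harvested on day 7 after transduction, and 5-aza, where used, was given for 24 h from day 3. Control cultures carried a non-silencing hairpin (replicates A and B) or a hairpin against luciferase (replicate 1). Setdb1 cultures carried shSetdb1.4 (replicates A and B) or shSetdb1.6 (replicate 1). Libraries of the same hairpin and replicate label, without and with 5-aza, are called a culture here, giving 3 libraries in each of 4 groups, and a 13th library had 5-aza but no named hairpin and was placed in no group. That library is named PGK in the table, as is a sample in which, per the study's methods, PGK variants were defined by the absence of reference alleles, so its genotype, sex and transduction are not taken to be those of the hairpin cultures. According to the study's text the cells with Setdb1 hairpins also carried a gene-trap allele of Setdb1 and those with the non-silencing hairpin did not, and the genotype of the luciferase culture was not stated, so hairpin, genotype and embryo cannot be told apart between the Setdb1 and control groups. The labels do not say whether cultures came from separate embryos, so p-values measure the spread between these cultures, which may be technical.

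Depth was 36.4 to 51.3 M reads in genes with a hairpin and 17.4 M in the library without one named. Values are in RPM, reads scaled to a library of 1 M reads. A single read was worth 0.017 to 0.0239 RPM with a hairpin and 0.0491 RPM without one named, so the members were measured on few reads and each value is given with its read count. Setdb1 was at 46.2 to 46.4 RPM with the control hairpin and at 12.1 to 15.4 RPM with the Setdb1 hairpins. With 5-aza it was at 42.7 to 44.0 and 10.5 to 14.5 RPM. All 8 fibroblast markers (such as Col1a1 and Vim) were abundant in every group, summing to 22720 to 34970 RPM in the hairpin libraries. In bulk RNA a change in the number of expressing cells and a change in the RNA per cell cannot be told apart.

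The sequences before the starts of the 2 genes are shown because loss of DNA methylation acts at CpG dinucleotides, and the genes differ in how many they hold there. Hsd3b6 (ENSMUSG00000027869) lies on the minus strand of chromosome 3 at 98805504 to 98814443 (GRCm38) and has 4 exons covering 1802 bases. Dnahc6 (ENSMUSG00000052861) lies on the minus strand of chromosome 6 at 73017606 to 73221651 and has 78 exons covering 13247 bases. The lines below give the RefSeq sequence (GRCm38.p6) of chr3:98814444-98814693 and chr6:73221652-73221881, minus strand, 5′ to 3′, ending just before each gene's interval (the RefSeq start of Dnahc6 lies slightly inside it), with CpG in capitals.
Hsd3b6: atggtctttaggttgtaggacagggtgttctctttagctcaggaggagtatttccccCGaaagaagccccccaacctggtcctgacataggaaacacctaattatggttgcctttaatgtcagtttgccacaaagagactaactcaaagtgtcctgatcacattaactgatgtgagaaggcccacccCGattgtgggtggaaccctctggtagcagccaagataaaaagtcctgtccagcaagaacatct
Dnahc6: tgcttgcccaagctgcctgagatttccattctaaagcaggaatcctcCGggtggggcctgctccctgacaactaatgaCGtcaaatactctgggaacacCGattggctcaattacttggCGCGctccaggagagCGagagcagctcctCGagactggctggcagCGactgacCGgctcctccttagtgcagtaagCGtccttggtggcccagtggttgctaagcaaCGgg

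The Hsd3b6 window held 2 CpG in the 250 bases before the RefSeq start, with a GC content of 47.2%, and its ratio of observed to expected CpG was 0.14. Of 32536 distinct mouse promoter windows of that length, 81.4% held as many or more CpG, and the median was 6. The Dnahc6 window held 11 CpG in 250 bases, with a GC content of 56.0% and an observed to expected ratio of 0.56, and 35.8% of windows held as many or more. The neighbouring paralogues of Hsd3b6 were also poor in CpG before their starts, with 1 for Hsd3b1, 1 for Hsd3b2 and 0 for both starts of Hsd3b3. A pair of motifs, chosen after the Dnahc6 sequence had been read, were searched on both strands: TGACGTCA, the palindrome bound by CREB and ATF factors, and GTTGCNNNGCAAC, the inverted repeat bound by RFX factors. Both occurred in the Dnahc6 window, their first bases at positions -175 and -36 from the RefSeq start, so that they did not overlap, and neither occurred in the Hsd3b6 window. TGACGTCA was present in 1.56% and GTTGCNNNGCAAC in 0.209% of all windows. These matches describe letters only. Methylation and factor binding at these sites were not measured here.

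Hsd3b6 was low and uneven without 5-aza and higher with it in all 6 hairpin cultures. Without 5-aza the control libraries held 22 reads (0.389 RPM) in non-silencing A, 17 reads (0.367 RPM) in non-silencing B and 67 reads (1.42 RPM) in the luciferase culture. With 5-aza they held 39 reads (0.840 RPM), 90 reads (1.68 RPM) and 252 reads (5.22 RPM) in the same order. The luciferase culture was the highest control both without and with 5-aza, and its untreated level lay above that of treated non-silencing A, so the control groups overlapped (8 of 9 pairs of a treated and an untreated library were higher with 5-aza). In the Setdb1 cultures Hsd3b6 was at 9 reads (0.189 RPM) in shSetdb1.4 A, 28 reads (0.476 RPM) in shSetdb1.4 B and 6 reads (0.143 RPM) in shSetdb1.6. With 5-aza these became 68 reads (1.36 RPM), 147 reads (2.93 RPM) and 121 reads (2.32 RPM). Every treated Setdb1 library was above every untreated one, in the contrast for which the gene was chosen.

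The level of Dnahc6 was near the detection limit in every library without 5-aza and was highest in the Setdb1 cultures with 5-aza. The untreated controls held 3 reads (0.053 RPM) in non-silencing A, 6 reads (0.130 RPM) in non-silencing B and 8 reads (0.170 RPM) in the luciferase culture. With 5-aza they held 20 reads (0.431 RPM), 15 reads (0.279 RPM) and 18 reads (0.373 RPM). Here, unlike Hsd3b6, the luciferase culture did not stand apart, and all treated control libraries lay above all untreated ones. The untreated Setdb1 cultures held 6 reads (0.126 RPM) in shSetdb1.4 A, 13 reads (0.221 RPM) in shSetdb1.4 B and 6 reads (0.143 RPM) in shSetdb1.6. With 5-aza they held 56 reads (1.12 RPM), 86 reads (1.71 RPM) and 99 reads (1.90 RPM). The treated Setdb1 libraries lay above every other hairpin library.

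**Figure D1:**
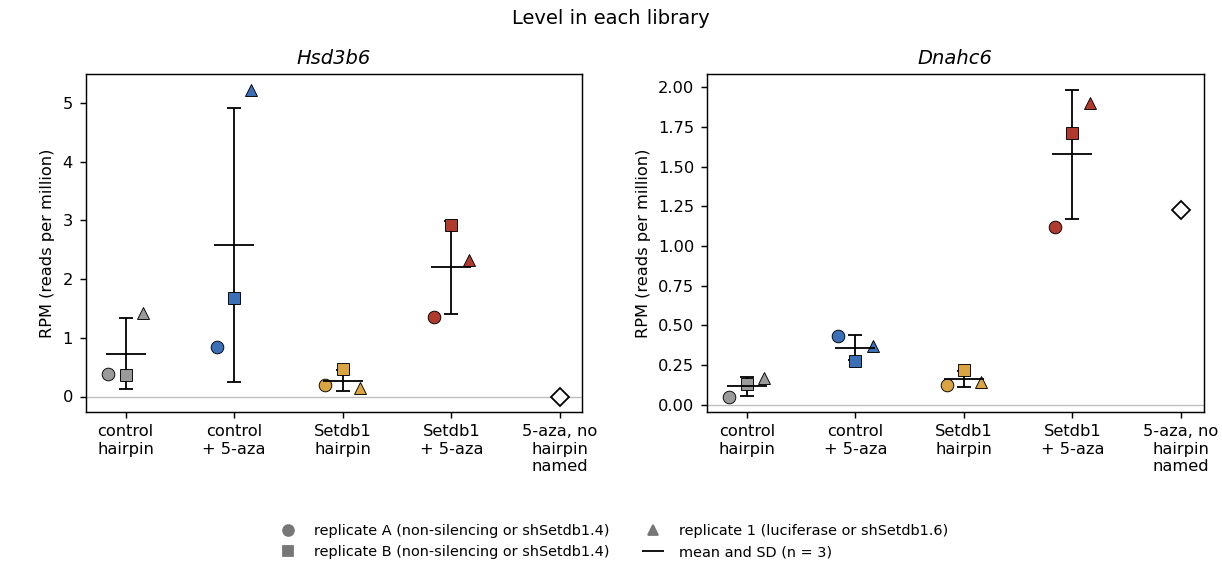
Level of Hsd3b6 (left) and Dnahc6 (right) in RPM in each library, by group on the horizontal axis; symbols mark the replicates, black bars the mean and SD of 3 libraries, and the open diamond the library without a named hairpin. The treated luciferase culture stands highest for Hsd3b6 at 5.22 RPM, whereas for Dnahc6 the 3 treated Setdb1 libraries stand highest among the hairpin libraries at 1.12 to 1.90 RPM.

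Ordered by mean level, Hsd3b6 was highest in the control cultures with 5-aza (2.58 ± 2.33 RPM, SD, n = 3), then in the Setdb1 cultures with 5-aza (2.20 ± 0.790 RPM). The untreated control cultures followed (0.727 ± 0.604 RPM), and the untreated Setdb1 cultures were lowest (0.270 ± 0.180 RPM). Each neighbouring pair in this order overlapped in range. Dnahc6 was highest in the Setdb1 cultures with 5-aza (1.58 ± 0.406 RPM) and next in the control cultures with 5-aza (0.361 ± 0.0764 RPM). It was lower in the untreated Setdb1 cultures (0.163 ± 0.0505 RPM) and the untreated control cultures (0.118 ± 0.0594 RPM). Only the last 2 of these overlapped, although the gap between the lowest treated control library, at 15 reads, and the highest untreated Setdb1 library, at 13 reads, was within counting error. The 2 genes thus ordered the treated groups differently in mean.

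In control hairpin cells, whose libraries did not choose the genes, Dnahc6 was higher with 5-aza by a log2 fold change of 1.75 ± 0.41 (SE), or 3.38-fold with a 95% interval of 1.81 to 6.28. This passed the threshold (limma over 13134 genes, Benjamini-Hochberg adjusted p = 0.0125). Dnahc6 was among the genes tested only through the 3 treated Setdb1 libraries, the group for which it was chosen, since all its control values were under the filter of 1 RPM in 3 of 12 hairpin libraries. Without that filter, over 19319 genes, its adjusted limma p was 0.018. The reported fit takes its spread from all 12 hairpin libraries, including those that chose the gene. With only the 2 control groups fitted, the SE of Dnahc6 was 0.47 and its adjusted limma p was 0.0436. Hsd3b6 had nearly the same estimate, a log2 fold change of 1.73 ± 0.69, or 3.31-fold with an interval of 1.16 to 9.41. Hsd3b6 did not pass in the reported fit, in which libraries are not paired by culture (limma, Benjamini-Hochberg adjusted p = 0.10). With a replicate block, which joins the libraries of a culture, its SE was 0.27 and it passed (limma adjusted p = 0.00114). The block was not taken for the reported fit, since same-culture control libraries correlated unevenly (0.149, 0.0999 and 0.586). All were positive, and the lowest fell just short of the cut set for pairing. So 1 of the 2 members was called higher in the reported fit, where 13.47% of all genes tested were called higher and 5.345% lower. With the block both members were called (Dnahc6 at a limma adjusted p of 0.00617), where 2704 of 13134 genes tested were called higher. With median centring 1285 of 2620 calls were higher and with quantile normalization 1194 of 2297, against 1769 of 2471 in the fit reported. The median log2 change of all genes tested was 0.042. For Hsd3b6 the call in the reported fit also depended on single libraries. Without the untreated luciferase library the log2 fold change was 2.36 (limma adjusted p = 0.0364). Without treated non-silencing A it was 2.33 (adjusted p = 0.0384), and without the treated luciferase library it was 1.01 (adjusted p = 0.317). The Dnahc6 call held without any 1 library (1.26 to 2.10), but it was lost on the log2(RPM + 1) scale (0.28, adjusted p = 0.0812), which shrinks changes of low values, and after quantile normalization (0.60, adjusted p = 0.166).

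Hsd3b6 passed the filter through 5 of the 6 treated libraries and the untreated luciferase library. Neither gene reached 5 RPM in 3 libraries.

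The change within each culture gave the same direction for both genes in all 6 pairs. In the Setdb1 pairs this direction follows from the choice of the genes, so only the control pairs are informative. How often other genes rise in every pair was not tested. For Hsd3b6 the ratio of treated to untreated level was 2.16 in non-silencing A, 4.57 in non-silencing B and 3.67 in the luciferase culture, with exact 95% counting intervals of 1.25 to 3.82, 2.70 to 8.19 and 2.79 to 4.88. These intervals and those below cover counting error only, since copies made by PCR are not independent molecules. For Dnahc6 the control ratios were 8.12 (2.41 to 42.7) in non-silencing A, where the untreated library held 3 reads, 2.16 (0.791 to 6.79) in non-silencing B and 2.19 (0.908 to 5.83) in the luciferase culture. In the last 2 of these the interval of a single culture included 1. Thus the luciferase culture, which had the highest Hsd3b6, had neither the highest ratio of Hsd3b6 nor that of Dnahc6 among the controls.

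**Figure D2:**
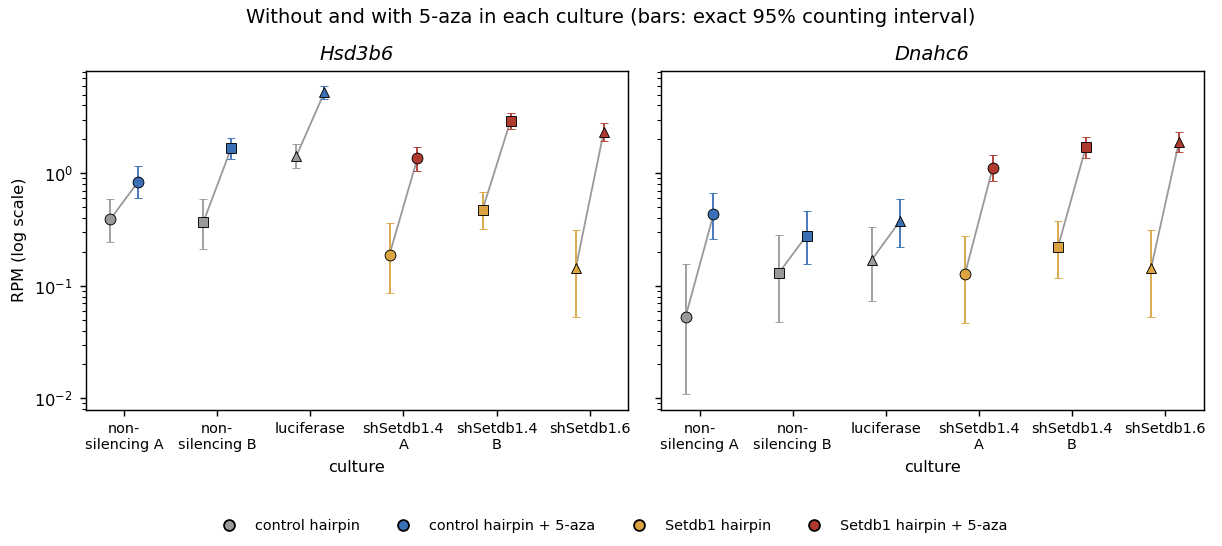
Hsd3b6 (left) and Dnahc6 (right) in RPM on a log axis, without and with 5-aza in each of 6 cultures; lines join the libraries of a culture and bars are exact 95% Poisson intervals of the reads. Both genes are higher with 5-aza in every culture, and Dnahc6 reaches over 1 RPM only in the Setdb1 cultures. The rises in the Setdb1 cultures are those for which the genes were chosen.

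In Setdb1 hairpin cells, the contrast that chose both genes, the log2 fold change with 5-aza was 3.28 ± 0.41 (SE) for Dnahc6 and 3.16 ± 0.69 for Hsd3b6, or 9.70-fold and 8.95-fold. As background, 21.36% of the genes tested were called higher and 7.515% lower in this contrast (2805 higher of 3792 called, 1833 of 3506 with median centring and 1887 of 3417 with quantile normalization), and nothing is read from it about the members, which it chose. The values next to them in order of log2 fold change were 6.52 for AC242409.1, 6.48 for Dazl and 5.99 for Gm10800 above, and 3.15 for Prl2c2, 3.03 for Prl2c3 and 2.90 for Tex19.1 below. Within cultures, the Hsd3b6 ratio was 7.18 (3.57 to 16.4) in shSetdb1.4 A, 6.15 (4.08 to 9.57) in shSetdb1.4 B and 16.2 (7.24 to 45.1) in shSetdb1.6. The Dnahc6 ratio was 8.87 (3.83 to 25.2), 7.75 (4.3 to 15.1) and 13.3 (5.88 to 37.0) in the same order. Both genes had their highest ratio in shSetdb1.6, where each started from 6 reads.

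The 2 genes differed in how the Setdb1 and control cultures compared, which is described here without tests because the libraries are those that chose the genes. For Dnahc6 the untreated groups differed by a log2 fold change of 0.59 with a 95% interval of -0.30 to 1.49. With 5-aza the Setdb1 cultures were 2.11 higher (1.22 to 3.01), or 4.33-fold. For Hsd3b6 the untreated Setdb1 cultures were lower than the controls, with a log2 fold change of -1.33 (-2.83 to 0.18), and the treated groups differed by 0.11 (-1.40 to 1.62). The level that Hsd3b6 reached with 5-aza was thus similar in mean with either hairpin, within an interval from 0.379-fold to 3.07-fold. Both differences of Hsd3b6 moved with the luciferase culture. Without its untreated library the untreated difference was -0.69, without its treated library the treated difference was 0.82, and with cultures A and B only they were -0.33 and 0.75. The treated difference also turned to -0.50 without treated non-silencing A and to -0.13 without treated shSetdb1.4 B. In RPM, 5-aza added 0.451 to 3.80 to Hsd3b6 in the control cultures and 1.17 to 2.45 in the Setdb1 cultures. For Dnahc6 it added 0.150 to 0.378 and 0.994 to 1.76. The difference of the 2 responses to 5-aza was 1.52 (0.26 to 2.79) on the log2 scale for Dnahc6 and 1.44 (-0.70 to 3.57) for Hsd3b6. These intervals come from the fit without pairing by culture, with SEs of 0.58 and 0.98. With the replicate block the 2 differences were the same and the SEs were 0.54 and 0.39, so the width of the Hsd3b6 interval depended on the pairing. The direction of the untreated Dnahc6 difference turned with quantile normalization, to -1.13.

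**Figure D3:**
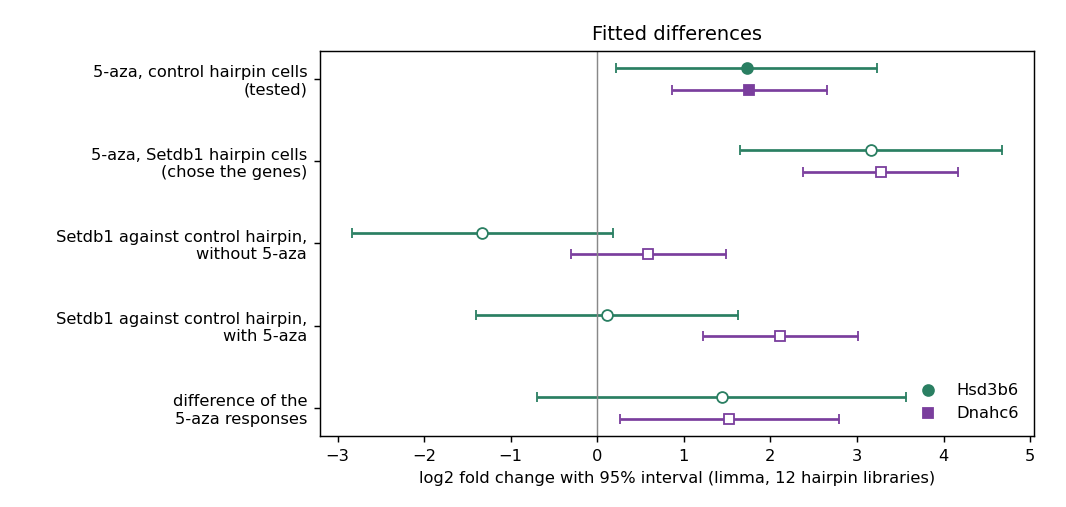
Log2 fold changes of Hsd3b6 (circles) and Dnahc6 (squares) in 5 contrasts, with 95% intervals of the fit over 12 hairpin libraries; filled symbols mark the contrast that was tested and open symbols those given as descriptions. With 5-aza the Setdb1 and control groups differ by 2.11 for Dnahc6 and by 0.11 for Hsd3b6.

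Hsd3b6 was one of the more uneven genes between libraries of a group. Its pooled SD within groups was 1.02 on the log2 scale, against a median of 0.09 over all genes tested and 0.23 over the 485 genes of similar level, of which it exceeded 99.6%. Dnahc6 had a pooled SD of 0.55, above that of 99.3% of all genes tested. Over the 12 genes tested at its level, itself included, the median was 0.42. Within the control group Hsd3b6 had a coefficient of variation of 83.1% without and 90.2% with 5-aza. For Dnahc6 these were 50.6% and 21.2%.

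The 5-aza library in which no hairpin is named gave different values for the 2 genes. It is the PGK library, whose cells may differ from the hairpin cultures in genotype as well as in the hairpin, and these cannot be told apart. It held 0 reads of Hsd3b6, which allows up to 0.147 RPM (3 reads), below all 6 treated hairpin libraries. It held 25 reads of Dnahc6, or 1.23 RPM (exact 95% interval 0.794 to 1.81), within the range of the treated Setdb1 cultures and above every control library. Its Setdb1 level was 47.0 RPM. Markers of macrophages (Ptprc, Cd68, Csf1r, Emr1 and Lyz2) summed to 103.5 RPM in this library against 9.62 to 13.95 RPM in the hairpin libraries, and their part in the Dnahc6 value was not tested. No replicate of this library was analysed.

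The paralogues of Hsd3b6 sit beside it on chromosome 3 and held few reads. Hsd3b2, 80928 bases away on the side of lower coordinates, had 3 to 14 reads in the untreated and 6 to 49 in the treated control libraries, and 6 to 15 and 18 to 26 in the Setdb1 libraries. Its highest value, 49 reads, was in the treated luciferase library, as for Hsd3b6. Hsd3b1, 37751 bases away on the other side, had 0 to 2 reads in the untreated and 3 to 9 in the treated hairpin libraries. Hsd3b3 had 3 to 11 reads and Hsd3b5 at most 1 read. None of these reached the filter, so none was tested. Beyond them, Hao2 and 5730437C11Rik had no read in any library.

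Hsd3b6 cannot be fully separated from these paralogues. Of the 31-base words in its transcripts, 29.1% also occurred in transcripts of other genes, chiefly Hsd3b2 (23.3%) and Hsd3b3 (21.3%), and of the words of 100 bases, the read length, 3.11% did. Whether reads were shared between them in the counting was not tested. Per kilobase of exon, if reads were counted over exons, Hsd3b6 was at 0.403 and 1.43 RPM in the control groups without and with 5-aza, and at 0.150 and 1.22 RPM in the Setdb1 groups. Hsd3b2 was at 0.0512, 0.128, 0.0516 and 0.124 RPM per kilobase in the same order. Hsd3b7, an enzyme of bile acid synthesis on chromosome 7, was by far the highest of the family at 18.4 to 19.9 RPM per kilobase, and its log2 fold changes with 5-aza were 0.06 ± 0.04 and 0.08 ± 0.04 in control and Setdb1 cells (limma adjusted p = 0.334 and 0.204).

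Dnahc6 was compared with 14 other axonemal dynein heavy chains. Per kilobase of exon it was at 0.00887 and 0.0273 RPM in control cells without and with 5-aza, and at 0.0123 and 0.119 RPM in Setdb1 cells. Dnahc17, an outer arm chain, was the highest of the family at 0.242 to 0.330 RPM per kilobase. Dnahc11 was at 0.0908 to 0.117, so in the treated Setdb1 cells Dnahc6 was at a level like that of Dnahc11. These 2 and Dnahc10 were the only others to pass the filter. Dnahc10, an inner arm chain, rose with 5-aza in control cells (log2 fold change 0.62 ± 0.14, limma adjusted p = 0.0104) and in Setdb1 cells (0.71 ± 0.14, adjusted p = 0.00425). It reached the filter only through treated libraries, its untreated means being 0.734 RPM in control and 0.739 RPM in Setdb1 cells. Dnahc17 rose by 0.32 ± 0.09 (adjusted p = 0.0284) and 0.42 ± 0.09 (adjusted p = 0.00595). Dnahc11 did not pass in either (-0.07 and 0.26). The chains Dnahc5 and Dnahc9, which are used in motile cilia of the airway, held at most 3 reads in any library.

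**Figure D4:**
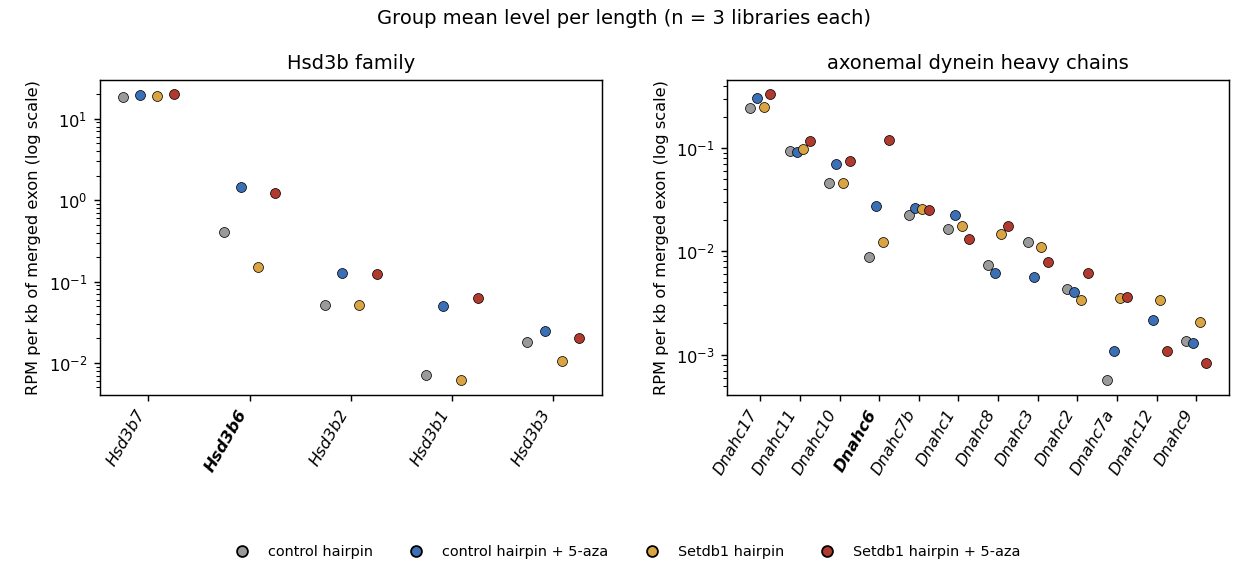
Mean RPM per kilobase of merged exon (log axis) of the Hsd3b family (left) and the axonemal dynein heavy chains (right) in the 4 groups; genes with under 10 reads over the 12 hairpin libraries and group means of 0 are left out. Dnahc6 moves from 0.0123 without to 0.119 with 5-aza in the Setdb1 groups, while Dnahc11 stays between 0.0908 and 0.117.

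The nearest genes to Dnahc6 were expressed, and none passed the test in either 5-aza contrast. Suclg1, a mitochondrial enzyme subunit gene 26731 bases away, had a log2 fold change of 0.07 ± 0.04 in control and 0.08 ± 0.04 in Setdb1 cells (limma adjusted p = 0.290 and 0.190). Tmsb10, encoding an actin-binding thymosin, had 0.01 ± 0.05 and 0.00 ± 0.05. Tcf7l1, Kcmf1 and Gm9008 also did not pass, with log2 fold changes from -0.13 to 0.05, and 4931417E11Rik had no read. The interval of Dnahc6 overlaps the antisense gene Gm20560, which shares 167 exonic bases with it, and the small RNA gene Gm24533, which shares none. The kit does not mark strand, so reads from the part shared with Gm20560 cannot be told apart from those of Dnahc6. That part held 1.06% of the 31-base words of Dnahc6.

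Of a list of 44 steroid synthesis and metabolism genes without Hsd3b6, 41 were in the table, 32 had a read in some library and 16 were tested. In control cells 5 rose with 5-aza, 0 fell and 11 did not pass, with a median log2 fold change of 0.18, where 13.47% of all genes tested were called higher and their median was 0.042. Those that rose were Hsd17b7 (0.24), Por (0.27) and Cyb5 (0.27), which encode a sterol ketoreductase, the electron donor of microsomal P450 enzymes and a cytochrome that aids them, and Tspo (0.23) and Stard3 (0.28), which encode outer mitochondrial and endosomal proteins of cholesterol handling. In Setdb1 cells 10 rose, 0 fell and 6 did not pass, with a median of 0.23, where 21.36% of all genes tested were called higher and their median was 0.058. At an unadjusted limma p under 0.05, 0 were lower in control and 1 in Setdb1 cells, and voom on the reads also called none lower. With median centring or quantile normalization 6 were called higher in Setdb1 cells and 1, Gata6, lower. Those that rose in Setdb1 cells were the 5 just named and Hsd17b12 (0.19), Srd5a3 (0.14), Akr1c14 (0.65), Fdx1 (0.63) and Scarb1 (0.16). Several of these serve general lipid metabolism as well as steroid synthesis. The highest of the list by RPM, Por, had group means of 124.4 to 176.7 RPM. Several genes particular to steroid-producing cells were at or near 0: Cyp17a1, Nr5a1, Lhcgr and Cyp19a1 had no read, and Cyp11a1 had 3 reads in a single library. Star, another marker of such cells, held 32 to 67 reads in the hairpin libraries. Its log2 fold changes with 5-aza were 0.49 ± 0.17 in control and 0.43 ± 0.17 in Setdb1 cells, and neither passed (limma adjusted p = 0.0634 and 0.0749). The control count fell to 3 without the untreated non-silencing A library, to 1 without untreated non-silencing B and to 2 without the treated luciferase library. The Setdb1 count fell to 6 without untreated shSetdb1.4 A, to 5 without treated shSetdb1.4 B and to 6 without treated shSetdb1.6.

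Of a list of 58 genes of axonemal dyneins and motile cilia without Dnahc6, all 58 were in the table, 51 had a read and 19 were tested. The same number, 3, rose in control and in Setdb1 cells, 0 fell and 16 did not pass, with median log2 fold changes of 0.02 and 0.09. These counts were near the shares of all genes tested that were called higher, 13.47% in control and 21.36% in Setdb1 cells. None was lower at an unadjusted limma p under 0.05 in either kind of cell, and voom also called none lower. Besides Dnahc10 and Dnahc17, the riser was Ccdc114, encoding a docking protein of outer dynein arms (0.78 ± 0.18, limma adjusted p = 0.0136 in control cells, and 0.59 ± 0.18, adjusted p = 0.0336 in Setdb1 cells). The control count fell to 1 without the untreated non-silencing B library. The gene of the list highest by RPM was Heatr2, a dynein assembly factor, with group means of 23.5 to 26.8 RPM. Foxj1, the transcription factor that directs motile cilia, held 0 to 14 reads in the hairpin libraries. Genes with too few reads to be tested also differed with 5-aza. Rsph4a, encoding a radial spoke protein and named after its values were seen, had group means of 0.0130 and 0.210 RPM in control cells without and with 5-aza, and of 0.0127 and 0.512 RPM in Setdb1 cells. Of the steroid list, Hsd3b1 had 0.0131 and 0.0940 RPM, and 0.0113 and 0.117 RPM. Both were at or under 2 reads in every untreated hairpin library, so no ratio to the members is drawn.

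**Figure D5:**
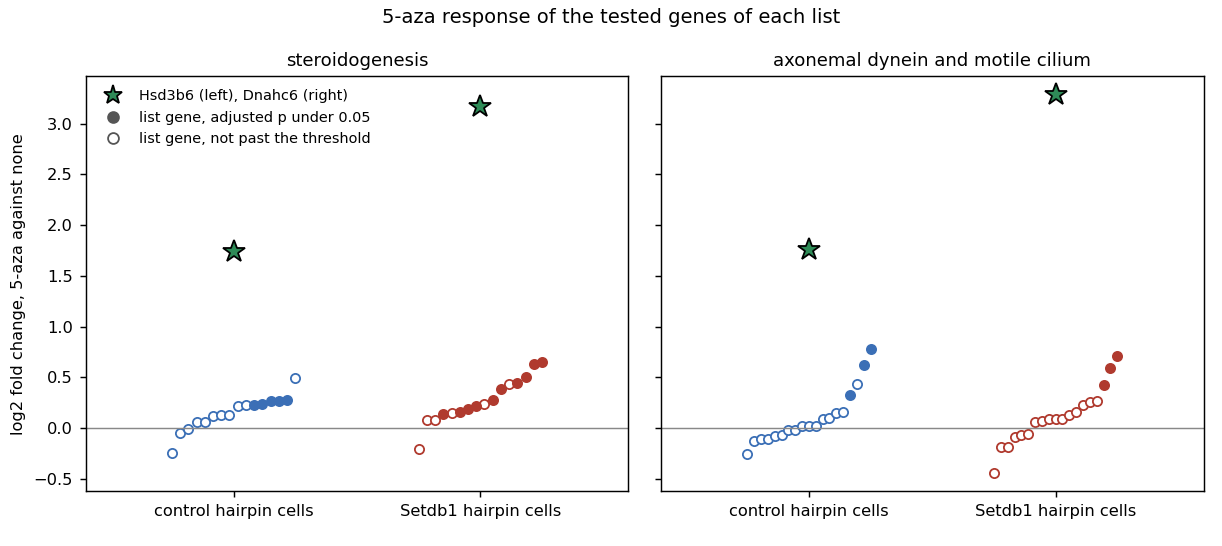
Log2 fold change with 5-aza of each tested gene of the steroid list (left, 16 genes) and the cilium list (right, 19 genes) in control and Setdb1 hairpin cells, ordered by size; filled circles passed the threshold and stars mark Hsd3b6 (left) and Dnahc6 (right). The stars lie at 1.73 to 3.28 and the tested list genes at or below 0.78. In Setdb1 cells the place of the stars above the list genes follows from the choice of the members for large rises there. List genes with too few reads to be tested are not shown.

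Markers of cell types were summed beside the members. Of the 8 fibroblast markers none passed the limma test in control cells. In Setdb1 cells Col1a1 (log2 fold change -0.73 ± 0.23, adjusted p = 0.0337) and Pdgfrb (-0.72 ± 0.19, adjusted p = 0.0146), a collagen chain and a growth factor receptor, were lower with 5-aza, and Vim, an intermediate filament, was higher (0.20 ± 0.05, adjusted p = 0.0152). The 10 markers of multiciliated cells, all of which are also in the cilium list, summed to 1.27 to 1.82 RPM without and 1.82 to 2.20 RPM with 5-aza in control cells and to 1.35 to 1.84 and 1.82 to 2.27 RPM in Setdb1 cells, and Tekt1 and 1700027A23Rik (Pifo) had no read. The 8 markers of steroidogenic cells, 7 of them also in the steroid list, summed to 1.04 to 1.23 RPM without and 1.601 to 1.916 RPM with 5-aza in control cells and to 0.978 to 1.39 and 1.38 to 1.75 RPM in Setdb1 cells, mostly from Star. The 8 markers of trophoblast giant cells, another steroid-producing type, summed to 0.149 to 0.442 RPM without 5-aza. With 5-aza they summed to 0.172 to 0.809 RPM in control and 1.42 to 2.65 RPM in Setdb1 cells. Most of this came from Prl2c2 (log2 fold change 2.75 ± 0.65 in control cells, limma adjusted p = 0.0129), while Prl3b1, Gcm1, Tpbpa and Ctsq had no read. Prl2c2 reached the filter only through the treated Setdb1 libraries, and its control means were 0.0544 RPM without and 0.341 RPM with 5-aza. The 6 germ cell markers summed to 0.725 to 0.786 RPM in untreated and 2.68 to 3.21 RPM in treated control cells, and to 1.33 to 1.79 and 6.93 to 8.11 RPM in the Setdb1 cells, led by Dazl in the treated cells, while Dppa3 had no read. In control cells Dazl and Tex19.1 had log2 fold changes of 5.88 ± 0.51 and 4.12 ± 0.28 (limma adjusted p = 2.88e-05 and 4.76e-06). Both reached the filter only through treated libraries, Tex19.1 only through those of the Setdb1 group. Their means in untreated controls were 0.0343 and 0.0 RPM, so the sizes of these changes depend on the floor value. The 5 macrophage markers summed to 9.86 to 10.8 RPM in untreated and 11.65 to 13.95 RPM in treated control cells, and to 9.62 to 10.4 and 12.56 to 12.98 RPM in Setdb1 cells. Most of this came from Csf1r, with group means of 7.53 to 9.35 RPM, while Emr1 held at most 4 and Ptprc at most 16 reads in a hairpin library. Of the macrophage markers Csf1r was called higher in both kinds of cell (0.27 ± 0.07 and 0.29 ± 0.07, limma adjusted p = 0.022 and 0.0121) and Cd68 in Setdb1 cells (0.52 ± 0.16, adjusted p = 0.0281). The germ cell and macrophage sums were thus higher with 5-aza without overlap in both kinds of cell. So were the steroidogenic sum in control cells and the trophoblast giant cell sum in Setdb1 cells. The multiciliated ranges lay apart in control cells by less than the worth of a single read (0.017 RPM or more). In Setdb1 cells the multiciliated and steroidogenic ranges overlapped by less than that, so the kinds of cell are not told apart there. How often sums of other genes separate was not tested, so the separation of these sums is not read as a result about cell types. As background, 13.47% of all genes tested were called higher with 5-aza in control and 21.36% in Setdb1 cells. The part of these markers in the members' values was not tested.

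The genes most like each member over the 12 hairpin libraries were abundant ones with small shifts. By Pearson's r of log2 RPM, Hsd3b6 was nearest to Acvrl1 (r = 0.984), Rnf181 (0.984), 4930471M23Rik (0.982), B230312A22Rik (0.980) and Mtf1 (0.975), all at 27.8 to 85.4 RPM in mean. Acvrl1, a receptor of the TGF-beta family, had group means of 32.5 and 38.5 RPM in control and 27.8 and 37.4 RPM in Setdb1 cells without and with 5-aza. Dnahc6 was nearest to Gnpda1 (0.969), Snx1 (0.965), Trim2 (0.963), Zfp710 (0.962) and Eng (0.957). Eng, encoding the co-receptor endoglin, had group means of 30.0 and 41.0 RPM in control and 34.0 and 51.5 RPM in Setdb1 cells. The 2 members correlated with each other at 0.690, which ranked Dnahc6 as 2565th among genes for Hsd3b6. These values are descriptions over libraries that share their groups and include those that chose the members.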

How the data were processed

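Poly(A) RNA of 13 MEF libraries was sequenced as single reads after TruSeq preparation, which does not mark strand. Per the labels' processing notes the authors used CASAVA 1.4 and mm10, and how reads were assigned to genes is not given in the sources used here. The deposited values are log2 RPM, made by the authors. Every value above the floor was a whole number of reads (tolerance 0.01 read, or 0.001% of larger values), the floor being 0.9 read. Read counts were obtained from these steps, and a count of 0 was taken to allow up to 3.

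The 13134 genes that reached 1 RPM in 3 or more hairpin libraries were fitted on the deposited log2 RPM in limma 3.58.1 (R 4.3.3; lmFit, contrasts.fit, eBayes with trend), with all 12 libraries in 1 fit. Two-sided p-values were corrected after Benjamini and Hochberg across the fitted genes, and an adjusted p under 0.05 was a call. The code of the fit was tested on reads simulated with a single dispersion for all genes and no shared deviation within cultures. That setting is simpler than these data, so it does not bear on the calls of the members. Same-culture libraries of the Setdb1 groups deviated together (r = 0.413 to 0.634, from the shared culture label). Intervals of reads are exact at 95%. Positions and exons came from GENCODE vM21 on GRCm38, whose intervals of the 2 genes equal those of the table, and promoter windows from RefSeq. Other steps used Python 3.11.15 with pandas 2.3.3, numpy 2.4.6, scipy 1.17.1 and, for plots, matplotlib 3.10.9.

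Named genes were the 2 members, list and marker genes called in a 5-aza contrast or highest in RPM, 3 neighbours on each side, the 5 genes most correlated with each member, Setdb1, and the 3 genes on each side by fold. Other list genes at or near 0, Star and paralogues were named after their values were seen. The members and lists were chosen with earlier results of these data known. Alternatives were other filters, pseudocounts and scalings, voom on the recovered reads, a replicate block, leaving out each library, and cultures A and B only, the last chosen after seeing the data.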

Additional observations from a re-analysis of the deposited data

Results flagged for a closer look

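Dnahc6 was at 1.23 RPM (25 reads) in the 5-aza library in which no hairpin is named, which entered no comparison. It stands out because the highest control hairpin library was at 0.431 RPM, and that of the treated Setdb1 cultures was at 1.90 RPM. Hsd3b6 had 0 reads in the same library. A group of 3 libraries is too small for a test of single outlying libraries, so none was made in the hairpin groups.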

How the results depend on the processing

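Neither gene had a value under a filter of 5 RPM in 3 libraries. With a replicate block, which joins the libraries of a culture, the Hsd3b6 log2 fold change with 5-aza in control cells stayed at 1.73 and passed (limma adjusted p = 0.00114), that of Dnahc6 stayed at 1.75 (adjusted p = 0.00617), and 3902 genes were called in control cells instead of 2471. Same-culture control libraries correlated by 0.149, 0.0999 and 0.586, the lowest just short of the cut set for pairing. The culture label was thus not taken to pair them in the reported fit. Over the libraries left out in turn, Hsd3b6 in control cells ranged from 1.01 to 2.36. The genes called ranged from 1260 to 2718 in control and from 2191 to 4193 in Setdb1 cells, steroid genes called from 1 to 6 and from 5 to 10, and cilium genes from 1 to 4 in control and from 2 to 4 in Setdb1 cells. On log2(RPM + 1), the 5-aza change in control cells of Dnahc6 was 0.28, that in Setdb1 cells was 1.31 for Hsd3b6 and 1.14 for Dnahc6, the treated Setdb1 against control difference of Dnahc6 was 0.91, and the differences of responses were 0.40 and 0.85. On log2(RPM + 0.1), Dnahc6 changed by 2.66 in Setdb1 cells. These scales shrink low values by construction. With quantile normalization Dnahc6 changed by 0.60 in control cells, its untreated Setdb1 difference was -1.13, its difference of responses was 3.20, and 0 cilium genes were called in control cells by limma (3 were higher and 1 lower at an unadjusted p under 0.05). The cause was not tested. With the 5 RPM filter 1 cilium gene was called in each kind of cell, of 7 tested, and with no filter 5 were called in Setdb1 cells, of 51. With cultures A and B only, 1532 and 2306 genes were called, and 1 and 6 steroid genes. In control cells Dnahc6 kept its call in 12 of 12 fits without a library and in 7 of 9 other alternatives, and Hsd3b6 stayed without one in 10 of 12 and 8 of 9. No value of either gene in the 5-aza contrasts changed direction. Dnahc6 held 3 to 13 reads in untreated libraries, which limits the precision of its ratios.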
